A study of Homo sapiens with 12 samples.

Results

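Chromatin regions that opened with induced wild-type estrogen receptor alpha (ER) only when estradiol (E2) was added, and with induced Y537S ER whether or not E2 was added, numbered 5299 of 166523 merged regions (3.18%). They were chosen by peak presence in ATAC-seq, in which a transposase inserts sequencing adapters into accessible DNA. Peaks of 12 libraries were merged on chromosomes 1 to 22 and X where they overlapped by at least 1 bp. A member had a peak in the wild-type (WT) library with doxycycline (Dox) and E2 and in both Y537S libraries with Dox, and no peak in the other 3 WT libraries or the other 2 Y537S libraries. Peak presence in the 4 K303R libraries played no part in the choice, though their peaks were merged with the others and helped set the borders of regions. A region with a peak is called open here, and a region without a peak had a signal under the caller's threshold and is not shown to be closed.

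The study used MDA-MB-453, a long-established breast cancer cell line, in 3 derivatives that carry an ectopic, inducible ER, either WT, Y537S or K303R. Each derivative was left untreated, given 1 nM E2, given 2 ug/mL Dox or given Dox and E2 together for 2 days, with 1 library for each of these 12 groups. All groups were grown in medium with 10% fetal bovine serum that the labels do not describe as hormone-depleted, so "without E2" means that none was added. The labels do not say how much receptor Dox induced in each derivative, whether a derivative is 1 clone, or that the cultures were independent, and with 1 library per group most values below carry no test.

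ER is a nuclear receptor that, bound by E2, binds DNA at estrogen response elements and recruits coactivators that open chromatin. Y537S is a change in the ligand-binding domain, found in tumours treated with endocrine therapy, and is known for holding the receptor in an active form without hormone. K303R lies in the hinge between the DNA-binding and ligand-binding domains and is known for raised sensitivity to low E2.

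Few members lay at promoters for which sequence was at hand: 58 members overlapped 65 promoter windows (250 bases before to 50 after a gene start, RefSeq, GRCh38.p14) of 60 genes. The stretches printed here are the parts of the upstream 250 bases that lie inside a member, on the strand of the gene, 5′ to 3′, with hg38 positions. They show how an arm of the estrogen response element, GGTCA or its reverse complement TGACC, in capitals, occurred in these regions. OAZ3 (an ornithine decarboxylase antizyme of the testis), PEMT (which makes phosphatidylcholine), LINC03141 (a noncoding RNA) and F2 (prothrombin) held 1 to 4 such arms, and LTF (lactoferrin) held none. These 5 were picked after their letters had been seen.
OAZ3, chr1:151766405-151766654, plus strand: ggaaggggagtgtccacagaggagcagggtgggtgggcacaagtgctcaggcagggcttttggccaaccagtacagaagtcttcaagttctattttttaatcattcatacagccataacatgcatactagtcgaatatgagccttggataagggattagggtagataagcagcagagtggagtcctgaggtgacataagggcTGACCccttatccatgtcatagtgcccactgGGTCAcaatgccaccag
PEMT, chr17:17582447-17582585, minus strand: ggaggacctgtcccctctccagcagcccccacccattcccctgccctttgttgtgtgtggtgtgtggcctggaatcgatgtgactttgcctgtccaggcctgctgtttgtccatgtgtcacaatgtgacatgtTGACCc
LINC03141, chr12:4011659-4011908, plus strand: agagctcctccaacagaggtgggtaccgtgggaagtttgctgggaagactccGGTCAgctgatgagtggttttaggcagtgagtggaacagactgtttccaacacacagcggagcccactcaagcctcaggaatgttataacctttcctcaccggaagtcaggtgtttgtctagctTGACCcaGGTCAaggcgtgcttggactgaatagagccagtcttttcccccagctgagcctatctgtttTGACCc
F2, chr11:46718963-46719212, plus strand: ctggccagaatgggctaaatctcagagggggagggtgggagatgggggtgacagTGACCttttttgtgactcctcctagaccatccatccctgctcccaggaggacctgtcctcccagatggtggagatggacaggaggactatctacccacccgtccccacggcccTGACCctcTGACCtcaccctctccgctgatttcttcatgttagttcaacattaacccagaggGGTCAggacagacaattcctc
LTF, chr3:46465018-46465155, minus strand: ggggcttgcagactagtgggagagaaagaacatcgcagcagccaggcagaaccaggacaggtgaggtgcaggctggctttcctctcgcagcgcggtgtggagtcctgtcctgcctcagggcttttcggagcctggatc

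The GGTCA motif, searched on both strands, was in 48 of the 65 windows (73.8%, exact Clopper-Pearson 95% interval 61.5 to 84.0%). It was in 37.3% of all 34961 promoter windows and in 35.4% of the 17227 windows that overlap any merged region. The windows on regions gained with Dox in both WT and Y537S held it in 66.4% (81 of 122), and those on regions gained in Y537S without any WT peak in 66.8% (129 of 193), both within the interval of the members. Members were thus above promoters in general and not set apart from other Y537S-gained regions by this motif. These counts include letters of the window that lie outside the member: of 57 upstream stretches inside a member, 31 held an arm. The whole palindrome, GGTCA and TGACC with 3 free bases between them, contains both arms and was in 0 of 65 windows (upper bound 5.52%) and in 0.0572% of all windows. With up to 2 mismatches to its 10 fixed letters it was in 18 of 65 windows (27.7%, 17.3 to 40.2%) against 10.3% of all windows, 40.2% on regions gained with Dox in both forms and 25.4% on those without a WT peak. With at most 1 mismatch it was in 1 window, F2 (ggtgacagtgacc), or 1.54% (0.0389 to 8.28%), against 12.3% (7.05 to 19.5%) on regions gained with Dox in both forms. The mismatch search was added after the data had been seen. Median GC content was 54.7% in the windows of members, 58.7% in all and 65.3% in those on any merged region, and its part in these shares was not tested. TGTTTAC, a forkhead motif, was in 1 of 65 windows (3.42% of all), and TGANTCA, an AP-1 motif, in 9 (13.8% against 7.68% of all, 27% on regions gained with Dox in both forms and 13.5% on those without a WT peak). A match in these letters is a description of the window and not a binding site, and the 58 members at promoters are a small share of the 5299.

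Over the whole series, the lists held 39522 to 133963 summits, and the background pileup of a library, which stands for depth, ran from 0.143 to 0.442. The K303R untreated library stood apart: the median pileup at regions open in all 12 libraries, as a multiple of background, was 24.9 there and 47.1 to 102 in the other 11. For the groups set against each other most often, the background was 0.361 in WT Dox and 0.253 in WT Dox+E2, and 0.210 in K303R Dox and 0.192 in K303R Dox+E2. Of 10 genes that mark the luminal cell, 8 were open at a gene end in all 12 libraries. Of 10 markers of other cell types, 6 were open at a gene end in none, and COL1A1 was open in 12, CD3E in 5, PTPRC in 4 and CDH5 in 2.

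The members were the larger part of what WT opened only with E2. Of 7620 regions open in WT with Dox+E2 and in no other WT library, 69.5% (68.5 to 70.6%) were members, 6.64% were open in all 4 Y537S libraries and 10.4% had no Y537S peak. Seen from Y537S they were a smaller part of a larger pattern. Of 30358 regions open with Dox, with and without E2, and in neither other Y537S library, 17.5% (17.0 to 17.9%) were members. Also gained with Dox in WT were 15.7%, and 59.0% had no WT peak. A further 5.45% showed the mirrored WT pattern, open with Dox and not with Dox+E2. Among all 166523 merged regions, 7620 had the WT pattern and 30358 the Y537S pattern. The Y537S Dox and Dox+E2 lists held 132496 and 133963 summits against 64476 in WT Dox+E2, and the part of list length was not tested. These counts follow from the rule and are descriptions.

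How close the members lay to the edge of the rule can be read from the regions that missed it by 1 library. A peak in WT Dox alone removed 4758 regions, and a peak in WT untreated, WT E2, Y537S untreated or Y537S E2 alone removed 20, 39, 71 and 157. The lack of a peak in WT Dox+E2 alone removed 17905, and the lack of one in Y537S Dox or Y537S Dox+E2 alone removed 217 and 225. The rule therefore turned on the WT Dox and WT Dox+E2 libraries. Just inside it, a region in PLEKHO1 had summit pileups (fragments over the summit) of 4 in WT Dox+E2, 6 in Y537S Dox and 4 in Y537S Dox+E2, and a region 6.27 kb from CDC73 had 8, 6 and 4. Just outside, a region in RERE had 14, 43 and 48 in those libraries and a WT Dox peak with a pileup of 4, and a region 5.49 kb from WNT4 had 6, 18 and 12 with a WT Dox pileup of 4.

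Peaks at members were weak beside the other peaks of WT Dox+E2 and strong beside those of Y537S Dox. Their median pileup was 6 in WT Dox+E2 (quartiles 5 and 8, range 4 to 24), 15 in Y537S Dox (10 and 21, range 4 to 75) and 15 in Y537S Dox+E2 (11 and 22, range 4 to 74). Set against the median of regions open in all 12 libraries, these medians were 0.462, 0.625 and 0.625. The median −log10 q was 5.46 in WT Dox+E2 against 8.33 over all its open regions, and 18.6 in Y537S Dox against 10.7. Member by member and on the always-open scale, Y537S Dox was 1.25 times WT Dox+E2 (quartiles 0.867 and 1.72), and 1.77 times when scaled by background. Y537S Dox+E2 was 1 time Y537S Dox (quartiles 0.813 and 1.25), and 0.905 times by background. All of these values were used by the rule and carry no test.

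**Figure D1:**
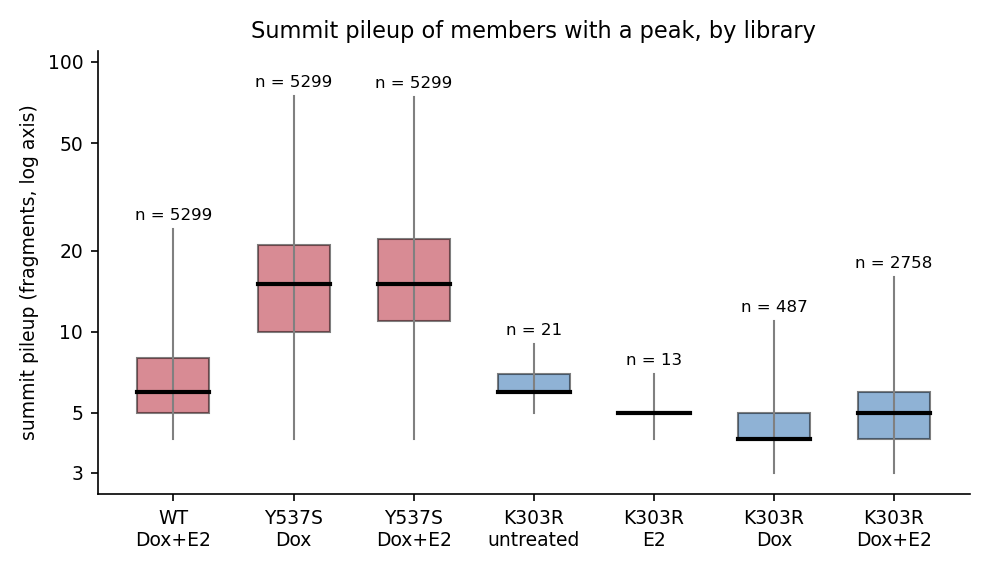
Summit pileup (fragments, log axis) of members with a peak, in each library where members could be open; red boxes are libraries the rule required and blue boxes the K303R libraries. Boxes span the quartiles, black lines are medians and grey lines run from the lowest to the highest value; the medians are 15 in both Y537S libraries, 6 in WT Dox+E2, 5 in K303R Dox+E2 and 4 in K303R Dox.

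In the K303R derivative, where the rule asked for neither a peak nor its absence, the members were open mostly where Dox and E2 were combined. K303R Dox+E2 had a peak in 2758 of 5299 members (52.0%, 50.7 to 53.4%), against 43.8% of all merged regions. K303R Dox had a peak in 487 (9.19%, 8.43 to 10.0%), against 40.9% of all regions. K303R untreated had a peak in 21 (0.396%) against 17% of all regions, and K303R E2 in 13 (0.245%, 0.131 to 0.419%) against 25.1%. Members were thus below the share of regions in general in 3 of the 4 libraries. They were above it in K303R Dox+E2 with the authors' peaks as listed, a relation that turned under other thresholds. All regions include those open without Dox in WT or Y537S and those open in WT Dox, which the rule barred from members. The sets compared in the next paragraph also lack peaks without Dox in WT and Y537S. Their shares ran from 0.330% to 1.26% in K303R untreated and from 0.235% to 1.81% in K303R E2. Members lay within both ranges, so their low shares without Dox do not set them apart from these sets. In K303R Dox, regions gained in Y537S without a WT peak had 4.24%, and regions open in WT Dox+E2 alone without a Y537S peak had 11.1%. Both sets lack a WT Dox peak, as members do, and the 9.19% of members lay between them. The exact intervals of the shares cover counting error only, since PCR reads without molecular identifiers are not independent molecules and regions are not replicates. Over the 4 libraries the mean share was 30.6% with Dox and 0.321% without (exact permutation test, two-sided, p = 0.333), the smallest p that 2 libraries against 2 can give. The rule asked for the same Dox contrast in Y537S, so this contrast in K303R is a description and not independent of the choice. With and without E2 the means were 26.1% and 4.79% (exact permutation test, two-sided, p = 1). That test pooled libraries with and without Dox, so it cannot decide on E2 within Dox, where the shares were 52.0% and 9.19%.

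The share rose 5.66 times from K303R Dox to K303R Dox+E2. Of the members, 2402 (45.3%) were open with Dox+E2 and not with Dox, against 13.4% of all regions, and 131 (2.47%) showed the reverse, against 10.5%. Both K303R Dox libraries were open in 356 members (6.72%), against 30.4% of all regions, and no K303R library in 2404 (45.4%), against 42.8%. Regions gained with Dox in both WT and Y537S went from 51.4% to 83.3%, a ratio of 1.62. Regions gained in Y537S without a WT peak went from 4.24% to 14.5%, a ratio of 3.41, and regions with the mirrored WT pattern from 33.2% to 44.1%, a ratio of 1.33. Regions that WT opened only with Dox+E2 and Y537S never opened went from 11.1% to 12.1%, a ratio of 1.09, and for all regions the ratio was 1.07. Members had the highest ratio of these 6 sets, but a share that starts high, such as 51.4%, has less room to rise. The count open with Dox+E2 alone over that open with Dox alone, of the 2 Dox libraries, was 18.3 for members. It was 8.42 for regions gained with Dox in both forms and 5.18 for those without a WT peak, the reverse of their order above. For the mirrored pattern it was 1.97, for regions Y537S never opened 1.16 and for all regions 1.28. The difference between sets was not tested, since each K303R group is 1 library.

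**Figure D2:**
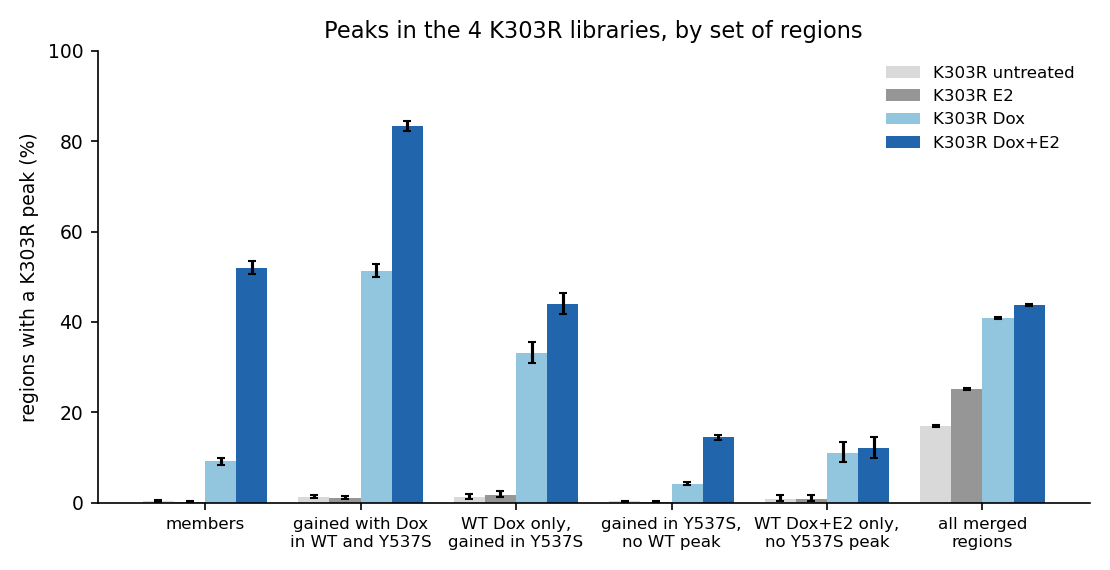
Percentage of regions with a peak in each of the 4 K303R libraries, for the members, the 4 comparison sets and all merged regions; error bars are exact 95% intervals for counting error only. Members go from 9.19% in K303R Dox to 52.0% in K303R Dox+E2, while all regions go from 40.9% to 43.8%.

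The K303R shares moved with the threshold, while Dox+E2 stayed above Dox in each setting tried. With every list cut to the 39522 most significant peaks, K303R Dox+E2 had 18.3% of the members of that setting against 41.3% of all its regions, and K303R Dox 3.23% against 40.5%. With a −log10 q of at least 10 in the 3 libraries required by the rule, the shares were 83.0% against 43.8% and 13.9% against 40.9%. That threshold was put on the members and not on all regions, so strong members stand there against unfiltered regions. In K303R Dox+E2 members were above regions in general with the peaks as listed (52.0% against 43.8%) and below at equal length, so this relation depended on the setting. In K303R Dox they were below in each, where the rule barred a WT Dox peak from members and not from regions in general. The ratio of Dox+E2 to Dox lay between 4.60 and 7.91 over the 8 settings tried. Both WT Dox libraries carry a name tag that differs from that of the other WT libraries, which share theirs with K303R, so each comparison of E2 within a derivative and Dox state lay within a tag, while Dox and the tag cannot be told apart in WT.

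Where K303R opened a member, the peak was weak. The median pileup was 5 in K303R Dox+E2 (quartiles 4 and 6, range 3 to 16) and 4 in K303R Dox (4 and 5, range 3 to 11), which is 0.294 and 0.25 of the always-open median. Over the 2758 members open in both, K303R Dox+E2 was 0.546 times WT Dox+E2 on the always-open scale (quartiles 0.425 and 0.669) and 0.940 times by background. Over all regions open in both, these ratios were 0.795 and 1.37, so members were lower than regions in general on both scales. Over the 356 members open in both K303R Dox libraries, Dox+E2 was 1.13 times Dox (quartiles 0.941 and 1.51), and 1.31 times by background, against 0.941 and 1.09 over all regions open in both. The lowest listed pileup was 3 in both libraries, so a median of 4 lies next to the calling threshold.

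Members stronger in WT were more often open in K303R. At a WT Dox+E2 pileup of 4, K303R Dox+E2 was open in 36.2% of 467 members, at 7 in 53.3% of 969, and at 13 to 24 in 88.6% of 167. K303R Dox was open in 6.85%, 8.36% and 16.8% of the same members. In regions gained with Dox in both WT and Y537S and of equal WT Dox+E2 pileup, K303R Dox was open in 40%, 43.7% and 65% and K303R Dox+E2 in 64.8%, 77.3% and 96.8%, both above the members in each of these classes. Sorted instead by Y537S Dox pileup, the share in K303R Dox+E2 went from 29.6% at 4 to 9 to 89.3% at 35 to 75, while that in K303R Dox was 8.88% and 6.30%.

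**Figure D3:**
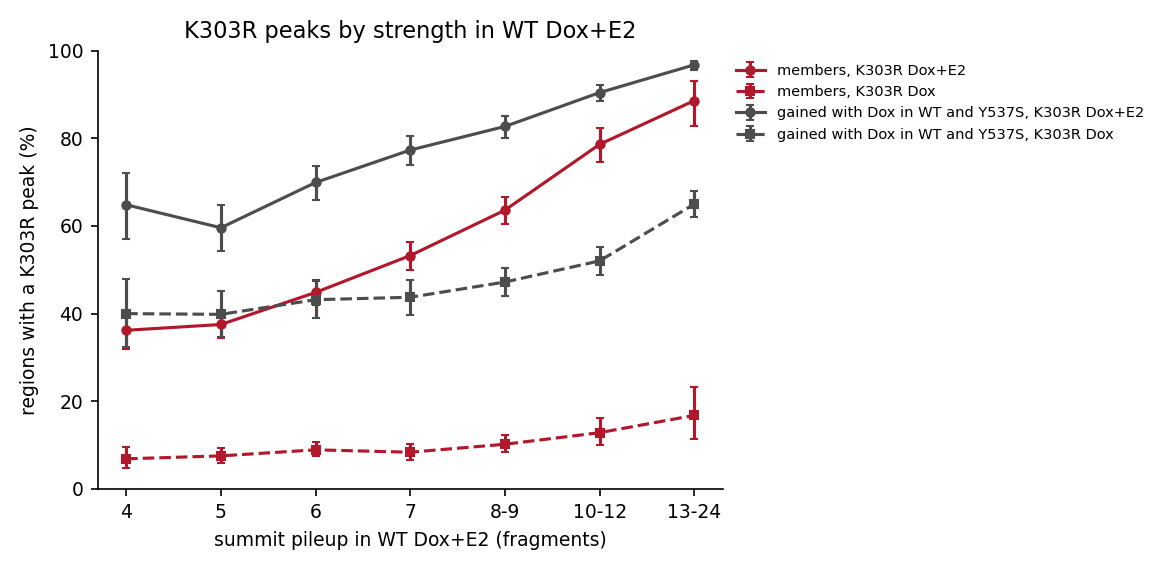
Percentage of regions with a peak in K303R Dox+E2 (circles, solid lines) and K303R Dox (squares, dashed lines) by summit pileup in WT Dox+E2, for members (red) and regions gained with Dox in WT and Y537S (grey); error bars are exact 95% intervals for counting error only. The red solid line climbs from 36.2% to 88.6%, and the red dashed line stays between 6.85% and 16.8%.

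The strongest members by the weakest of the 3 required libraries were mostly open in K303R with Dox+E2 alone. The region in NTNG1 (netrin G1, a synaptic adhesion protein; chr1:107401889-107402683) had pileups of 24 in WT Dox+E2, 55 in Y537S Dox, 39 in Y537S Dox+E2 and 8 in K303R Dox+E2. The region in RNF215 (chr22:30382442-30383842) had 22, 54, 53 and 11, and that in PAPLN (papilin, an extracellular matrix protein; chr14:73260647-73262599) had 20, 67, 64 and 12. None of these had a K303R Dox peak. In the same order, the region in AACS (acetoacetyl-CoA synthetase; chr12:125092156-125093403) had 19, 54, 52 and 8, and that in TRIM2 (a ubiquitin ligase; chr4:153246527-153247326) had 18, 25, 20 and 6. Of the 10 strongest, 2 also had a K303R Dox peak, both with a pileup of 5: a region 9.23 kb from ZNF669 (chr1:247090183-247091054) and a region at chr8:48545533-48546625. All 10 were open in K303R Dox+E2, with pileups of 5 to 12.

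The strongest K303R Dox+E2 peaks among members open in no other K303R library lay mostly on chromosome 8. In ZFAT (a zinc finger protein; chr8:134503884-134505022) the pileup was 16 in K303R Dox+E2, 9 in WT Dox+E2, 51 in Y537S Dox and 54 in Y537S Dox+E2. In FBLN1 (fibulin 1, a matrix protein; chr22:45556288-45556902) it was 16, 16, 36 and 32. In NDRG1 (a stress-responsive gene; chr8:133265313-133266624) it was 15, 10, 54 and 59, in MTSS1 (chr8:124630869-124631871) 15, 10, 40 and 22, and in GSDMD (gasdermin D, the pore former of pyroptosis; chr8:143554920-143556205) 14, 10, 64 and 74. On chromosome 8, 66.3% of 246 members (60 to 72.1%) were open in K303R Dox+E2, against 41.6% (chromosome 9) to 61.4% (chromosome 13) on the other chromosomes. At regions open in all 12 libraries, the pileup on chromosome 8 was 1.29 times the median of the library in K303R Dox+E2 and 1.31 times in K303R Dox, against 1.00 in Y537S Dox and 0.923 in WT Dox+E2, and its part in the K303R values there was not tested. Without chromosome 8, K303R Dox+E2 was open in 51.4% of 5053 members and K303R Dox in 8.96%, against 43.7% and 40.8% of all regions.

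Other members were open in both K303R Dox libraries. A region 11.6 kb from HLA-B (an antigen-presenting molecule; chr6:31368484-31368830) had pileups of 11 in K303R Dox and 9 in K303R Dox+E2, and 6, 7 and 8 in WT Dox+E2, Y537S Dox and Y537S Dox+E2. A region in KCNAB1 (a potassium channel subunit; chr3:156535118-156535643) had 8 and 9 in K303R and 11, 7 and 14 in the others. A region 47.2 kb from PRSS23 (a serine protease; chr11:86743808-86744146) had 11 and 8 in K303R and 11, 19 and 10 in the others. K303R Dox thus had the higher pileup near HLA-B and PRSS23 and K303R Dox+E2 in KCNAB1. Still others had no K303R peak in spite of pileups of 14 to 16 in WT Dox+E2. Of these, the region in ITGA11 (a collagen-binding integrin; chr15:68415571-68416240) had 16, 30 and 32 in WT Dox+E2, Y537S Dox and Y537S Dox+E2. That in SLCO2A1 (a prostaglandin transporter; chr3:133992518-133993264) had 15, 19 and 17, and that in FNBP1 (chr9:129981515-129981943) had 14, 21 and 28.

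Members lay away from gene ends. Of the 5299, 182 (3.43%, 2.96 to 3.96%) had their summit within 1 kb of an end of a protein-coding gene, against 10.9% of all merged regions, and the median distance was 29.9 kb against 21.6 kb. Other Y537S-gained regions were alike in this: the share was 3.24% for those also gained with Dox in WT, 3.89% for those without a WT peak and 3.74% for those with the mirrored WT pattern. Inside a gene lay 2831 (53.4%), against 52.7% of all regions. Because the gene table used gives no strand, start and end of a gene were not told apart. K303R Dox+E2 was open in 50% of members near gene ends (91 of 182), 52.7% of those inside genes and 51.4% of those outside, and K303R Dox in 3.30%, 8.45% and 10.5%. Members had a median width of 541 bp (quartiles 414 and 713), between the 354 bp of regions gained in Y537S without a WT peak and the 673 bp of regions gained with Dox in both forms. The widest lay 0.79 kb from SLC6A8 (a creatine transporter; chrX:153690600-153700353), with 9754 bp and pileups of 6, 26 and 30 in WT Dox+E2, Y537S Dox and Y537S Dox+E2. A region in DHCR7 (the last enzyme of cholesterol synthesis; chr11:71432520-71438933) had 6414 bp and pileups of 5, 57 and 60.

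Summits of different forms lay somewhat farther apart in members than in regions in general. Only summits inside the same merged region were compared, which limits these distances. The WT Dox+E2 and Y537S Dox summits of a member were a median of 58 bp apart, and 68.4% were within 100 bp, against 44 bp and 73.4% over all regions open in both. The K303R Dox+E2 and WT Dox+E2 summits were 77 bp apart, with 60.4% within 100 bp, against 50 bp and 70.3%. Members were nearer to each other than other regions were to them. The nearest other member was a median of 71.7 kb away and within 50 kb for 42.5%. From every 20th other region the nearest member was 152 kb away and within 50 kb for 26.1%. From a region gained in Y537S without a WT peak the nearest member was 111 kb away (33.6% within 50 kb), and from a member the nearest region gained with Dox in both forms was 103 kb away (35.9%). By chromosome, members made up 1.96% (chromosome 19) to 4.93% (chromosome 22) of the regions.

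Within 50 kb of a protein-coding gene lay a member for 5535 of 19974 genes (27.7%), within 20 kb for 18.1% and within 100 kb for 39.8%, and 105 genes had at least 5. That share grew with the number of merged regions around a gene, from 6.64% of genes with 1 to 5 regions, through 30.2% with 11 to 20 and 50.6% with 21 to 40, to 91.1% with 81 or more. Counts for long genes are to be read against this. SHANK2 (a synaptic scaffold) had the highest count, 12 members among 324 regions, of which 5 were open in K303R Dox+E2 and 2 in K303R Dox. These 12 were 3.70% of its regions, near the 3.18% that members made up of all merged regions. TRAPPC9 (a vesicle trafficking factor, on chromosome 8) had 11 among 108 (10.2%), with 10 and 4 open in those libraries. RANBP2 (a nuclear pore protein), which the gene table gives a span of 1123 kb, had 10 among 112 (8.93%), with 4 and 1. The members were denser at HPCAL1 (a neuronal calcium sensor), with 7 among 41 (17.1%), and at PLXNA4 (a semaphorin receptor), with 7 among 39 (17.9%). At ZNF423 (a zinc finger factor) they were 7 among 34 (20.6%). At HPCAL1 6 of the 7 were open in K303R Dox+E2 and 0 in K303R Dox. CLSTN2 had 8 members, GABRG3 7 and CACNA1G 6. SH3RF3 had 8, and its window lies inside that of RANBP2, so these 8 are among the 10 counted there.

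Of 50 estrogen response genes, 24 (48%) had a member within 50 kb, against 27.7% of all genes and 50.6% of genes with 21 to 40 regions, the range that holds the list's median of 22.5 regions. The share is therefore near that of other genes with as many regions. Around the 24 genes lay 40 members. Of these 40, 21 were open in K303R Dox+E2, near the 52.0% of all members. In K303R Dox 10 of the 40 were open, above the 9.19% of all members, and this difference was not tested. GFRA1 (a GDNF receptor), SEMA3B (a semaphorin), SLC7A5 (an amino acid transporter) and WWC1 (KIBRA) had 3 each. GREB1 (an ER cofactor), PGR (the progesterone receptor), TFF1 (a secreted trefoil peptide), NRIP1 (an ER corepressor), CTSD (cathepsin D), CELSR2, SIAH2, RAB31, TMPRSS3 and P2RY2 had 2 each. The windows of TFF1 and TMPRSS3, both on chromosome 21, overlap and hold the same 2 members.

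At GREB1 the K303R libraries split its pair of members. The region at chr2:11498501-11498960 had pileups of 10 in WT Dox+E2, 22 in Y537S Dox, 23 in Y537S Dox+E2 and 8 in K303R Dox, with no K303R Dox+E2 peak. The region at chr2:11494507-11495221, 11.8 kb from a gene end, had 6, 26 and 16, with a pileup of 6 in K303R Dox+E2 and no K303R Dox peak. At PGR, a region 48.4 kb from the gene (chr11:100980726-100981822) had 6, 8 and 11 in WT Dox+E2, Y537S Dox and Y537S Dox+E2, with 5 in K303R Dox and 4 in K303R Dox+E2. A region 38.9 kb from it (chr11:100990526-100990866) had 5, 28 and 41 and no K303R peak, so the member that was stronger in Y537S was the one K303R did not open. This pair differs from the members as a whole. Among them the share open in K303R Dox+E2 rose with Y537S Dox pileup, from 29.6% at 4 to 9 to 89.3% at 35 to 75.

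At SLC7A5, the region at chr16:87834428-87835165 had 12, 24 and 25 in WT Dox+E2, Y537S Dox and Y537S Dox+E2, and 6 in K303R Dox+E2. The region 28.6 kb outside (chr16:87897691-87898578) had 7, 29 and 22, and 6 in K303R Dox+E2, and a region inside the gene (chr16:87844811-87846521) had 6, 27 and 19 and no K303R peak. No member of SLC7A5 was open in K303R Dox. At NRIP1 both members, outside the gene at chr21:14943449-14943877 and chr21:14949687-14950129, lacked a K303R peak and had 5, 9 and 7, and 5, 24 and 29. At CELSR2 the member 3.17 kb outside (chr1:109246083-109246630) was open in K303R Dox with 4 and in K303R Dox+E2 with 6, and that inside (chr1:109272279-109273216), stronger in Y537S with 27 and 27 against 13 and 13, in neither. Like the PGR pair, this one differs from the members as a whole.

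The other lists ran from 25% to 57.9%. Of 19 interferon-stimulated genes 11 (57.9%) had a member within 50 kb, with a median of 12 regions a gene, against 30.2% of all genes with 11 to 20 regions, and 8 of the 12 distinct members there were open in K303R Dox+E2 and 1 in K303R Dox. ISG15 had 3, IRF9 and RSAD2 2 each, and several neighbours, such as IFIT1 and IFIT3 or MX1 and MX2, lie in windows that overlap. With windows of 20 kb the count was 5 (26.3%, against 18.1% of all genes). The remaining lists are to be read against 27.7% of all genes, 30.2% of genes with 11 to 20 regions and 50.6% of those with 21 to 40. Of 14 growth factor receptor genes (median 18 regions) 6 (42.9%) had a member, with 4 at EGFR and 1 each at ERBB2, IGF1R, FGFR3, KIT and KDR. Of 22 luminal identity genes (median 23 regions) 6 (27.3%) had a member, among them TFAP2C with 2 and FOXA1, the pioneer factor of ER sites, with 1. Of 16 ER coregulators (median 21.5 regions) 4 (25%) had a member and of 18 immediate early genes (median 24) 5 (27.8%), so that these lists and the luminal one lay near the share of all genes and below that of genes with 21 to 40 regions. Of 20 androgen response genes (median 14.5) 6 (30%) had a member, of 14 basal and mesenchymal genes (median 11) 4 (28.6%, with 6 members at MYLK) and of 23 housekeeping genes (median 17) 7 (30.4%), near the share of genes with 11 to 20 regions. ESR1, CCND1 and XBP1 had no member within 50 kb.

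**Figure D4:**
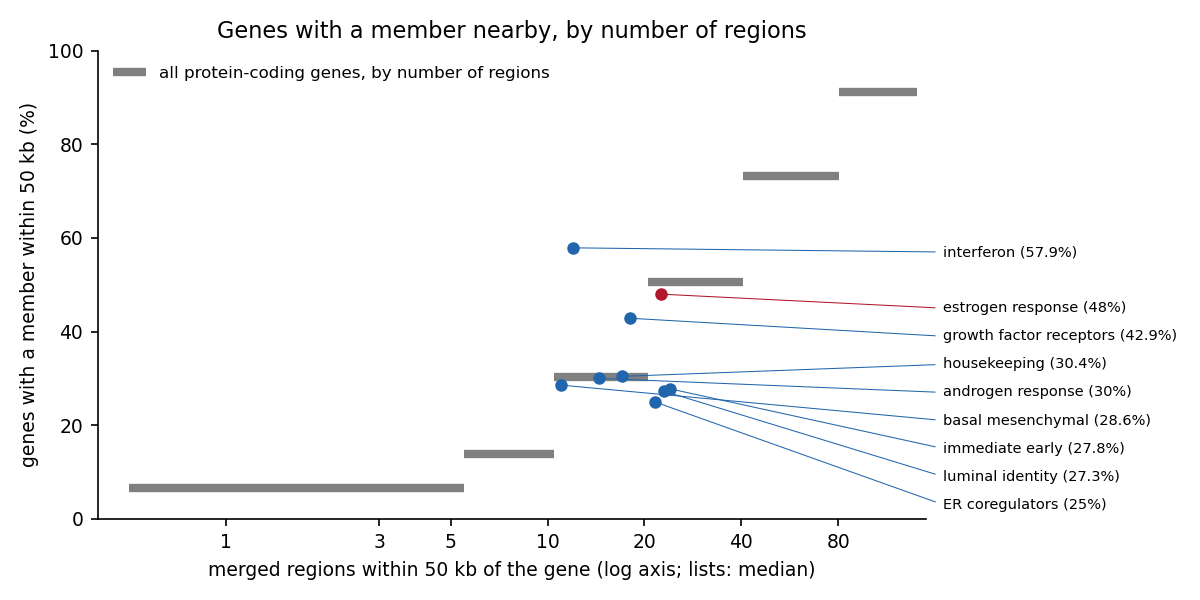
Percentage of genes with a member within 50 kb of the gene, for all protein-coding genes by number of merged regions in the same window (grey bars, log axis) and for 9 gene lists at their median number of regions (points, estrogen response in red). The estrogen response list, at 48%, sits near the grey bar of its range at 50.6%, and the interferon list, at 57.9%, sits above its bar at 30.2%.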

How the data were processed

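ATAC-seq was deposited as 1 peak list per library (12 libraries, hg38, 75 bp paired ends per the labels). The submitters' processing notes name FastQC, Bowtie2, SAMtools, Picard and MACS2. Tool versions and settings, and whether reads were shifted to the cut site, were not given in the sources used here. The deposited lists give for each peak a score, a fold enrichment (the ratio of summit pileup plus 1 to background plus 1) and −log10 p and −log10 q values, all the authors' own values for single peaks, called per library. From the deposited fold, the whole-number pileup at each summit and 1 background value per library were recovered here. Read totals are not used here, and the background stands for depth.

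Peaks were merged and members chosen by presence as stated in the results. The strongest summit stood for a region in a library. Pileups were compared after division by the library's median over 16630 regions open in all 12 libraries, or by its background. Shares carry exact Clopper-Pearson 95% intervals. Gene spans and promoter windows came from RefSeq tables of GRCh38.p14, the assembly of hg38. The promoter table covers 15812 of the 19974 protein-coding genes, so distances were taken to either end of a gene. Python 3.11.15, pandas 2.3.3 and scipy 1.17.1 were used, and the counting was tested on simulated data.

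The members and the gene lists were chosen with earlier results of these data known. Named members were the 10 with the largest smallest −log10 q over the 3 required libraries, the 5 leading ones each of those open in both K303R Dox libraries, in none and in Dox+E2 alone, up to 3 for each of the 10 estrogen response genes with most members, the 5 widest, and 5 each just inside and outside the rule, of which examples are given. The 10 genes with most members were also named. Alternatives were stricter −log10 q, equal list length, summit windows of 501 bp, coverage of 50%, each library of the rule left out, a 2500 bp distance and other gene windows. A gene of the marker list and a motif are not reported here.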

Additional observations from a re-analysis of the deposited data

How the results depend on the processing

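The number of members was 2148 at a −log10 q of at least 10 in every library, 589 with that threshold only in the 3 required libraries, 2665 with lists of equal length, 23204 without the WT Dox+E2 library and 10057 without WT Dox. Leaving out each other library gave 5319 to 5524. At a −log10 q of at least 5, of at least 10, of at least 10 in the required libraries, at equal length and with peaks covering 50% of a region, in this order, the share open in K303R Dox+E2 was 31.3%, 23%, 83.0%, 18.3% and 32.0% (all regions 35.3%, 34.1%, 43.8%, 41.3% and 31.0%). In the same order, that in K303R Dox was 4.23%, 3.77%, 13.9%, 3.23% and 6.96% (all regions 32.4%, 32.0%, 40.9%, 40.5% and 30.3%). That in K303R untreated was 0.0769%, 0%, 0.679%, 2.51% and 0% (all regions 15.5%, 11.5%, 17.0%, 44.4% and 5.25%). Where the threshold was only in the required libraries, it was put on members alone, and the all-region values are of unfiltered regions. The K303R E2 share was 1.39% at equal length (all regions 41.6%). Counting K303R peaks only from a pileup of 5, a setting chosen after seeing the data, gave 33.6% for Dox+E2 (all regions 34.3%) and 4.25% for Dox (all regions 31.4%). Leaving out chromosome 8 was also chosen then. The share near gene ends was 8.85% within 2500 bp, and 4.58% for members with a −log10 q of at least 10 in the required libraries. ER coregulators with a member numbered 8 of 16 (50%) within 100 kb, against 39.8% of all genes. Within 20 kb, 2 of 18 immediate early (11.1%), 5 of 19 interferon (26.3%) and 2 of 23 housekeeping genes (8.70%) had one, against 18.1% of all genes. The cause of these shifts was not tested. No paired analysis was possible because the labels give no replicate numbers and each group is 1 library, which leaves no replicate block to fit. Motif searches around summits, which had been planned, were not run, since no genome sequence was used here. A peak of 3 to 5 fragments is the least the lists hold, so weaker openings were not detectable at this depth.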
